A study of Mus musculus with 622 samples.

Results

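The genes described are 39 enzymes that carry glucose carbon through glycolysis, the tricarboxylic acid (TCA) cycle and the steps that pass carbon and reducing equivalents between mitochondria and cytosol. They were chosen by name, as 15 genes of glycolysis, 17 of the TCA cycle and 7 of the cytosol and shuttles, and all 39 were found among the 44448 genes of the table. RNA was measured in 622 single cells, all from islets of the pancreas of C57BL/6 wild type mice, each captured on a Fluidigm C1 microfluidic chip and given its own library. The labels give all cells the same strain, tissue and genotype and name no animal, chip, treatment or age. The cells therefore counted as 1 sample, without replicates, and no difference below has a test. Values are RPKM, in which reads are divided by the length of the gene and by all mapped reads of that cell, so levels of different genes can be compared per length.

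Of the 622 cells, 593 had 1000 or more genes at a level of 1 RPKM or higher. They were grouped by the hormone whose RNA made up at least 90% of the summed insulin (Ins1 and Ins2), glucagon (Gcg), somatostatin (Sst) and pancreatic polypeptide (Ppy) RPKM. This gave 13 delta cells led by somatostatin, 11 PP cells led by pancreatic polypeptide, 33 alpha cells led by glucagon and 395 insulin cells. The other 141 cells had no hormone at 90% and were left out of the groups. The leading hormone held 90 to 95% in 18 grouped cells, and 85 to 90% in 25 cells just outside the groups. Of the listed markers that the grouping did not use, 3 of 4 delta, 2 of 3 PP, 3 of 3 alpha and 5 of 6 beta cell markers had their highest mean in the group they name. Hhex averaged 259 RPKM in delta cells, Tspan8 averaged 665 RPKM in PP cells, and G6pc2 averaged 1040.1 RPKM in insulin cells. The exceptions were Casr of the delta list, at 1.88 RPKM in delta and 4.27 RPKM in alpha cells, Id4 of the PP list, at 0 in all PP cells, and Slc30a8 of the beta list, at 719 RPKM in alpha and 449.9 RPKM in insulin cells. Some markers were also high in a second group. In delta cells the beta marker Iapp averaged 34793 RPKM and the PP markers Pyy and Tspan8 averaged 53973 and 368 RPKM.

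The groups differed in size and in technical measures. Median reads per cell were 994733 in delta, 1139928 in PP, 1142615 in alpha and 1130401 in insulin cells, and median numbers of genes at 1 RPKM or more were 4371, 3798, 4576 and 5259 in the same order. The hormone RNAs took a median of 17.1% of all RPKM in delta cells, 46.7% in PP, 43.3% in alpha and 45.1% in insulin cells. The columns of the table were written in 2 number formats, one at full precision and one rounded to 4 decimals, and the groups held 6 and 7, 6 and 5, 17 and 16, and 226 and 169 cells of them in the same order. Genes detected were fewer in rounded columns (median 4140 in insulin cells) than in full-precision columns (5707.5), so ratios were also computed within each format. Markers of a cell type outside the endocrine ones, at least 3 of 1 type at 10 RPKM or more, were present in 1 delta, 3 PP, 2 alpha and 19 insulin cells. The immune list had 8, 4, 7 and 8 of its 8 markers at a group mean of 1 RPKM or more in delta, PP, alpha and insulin cells, with summed levels of up to 16074, 1068, 13568 and 26577 RPKM in single cells. In PP cells the stellate or fibroblast list had 6 of its 6 markers at that mean, summing to up to 5021 RPKM in a cell, and the glial list had 3 of 4, summing to up to 1001 RPKM. In delta cells these lists had 1 of 6 and 0 of 4, in alpha cells 2 of 6 and 2 of 4, and in insulin cells 5 of 6 and 1 of 4. The part of these differences in the results was not tested, beyond the values with and without such cells given below.

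Glycolysis splits glucose into pyruvate in the cytosol, the TCA cycle oxidizes the carbon of pyruvate in mitochondria, and shuttles such as the malate-aspartate shuttle carry the reducing equivalents of cytosolic NADH inwards. In beta cells this chain is known for coupling blood glucose to insulin release, since ATP made from glucose closes potassium channels. Beta cells are also known for exporting citrate from mitochondria, which ATP citrate lyase in the cytosol turns into acetyl-CoA. Several steps have paralogous enzymes that differ in tissue and in kinetics, as with the muscle and liver forms of phosphofructokinase.

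Summed over each role, the enzyme RNAs overlapped between all 4 groups. The 15 glycolysis genes summed to 66.9 RPKM in the lowest, 1078 in the median and 1545 in the highest delta cell. In PP cells they summed to 103, 579 and 2004 RPKM, in alpha cells to 57.5, 403 and 1389 RPKM, and in insulin cells to 3.19, 810 and 12298 RPKM. The ranges overlapped, and the alpha median was the lowest. For the 17 TCA cycle genes the medians were 1513 RPKM in delta, 855 in PP, 775 in alpha and 1134 in insulin cells. For the 7 cytosol and shuttle genes they were 449, 304, 259 and 678 RPKM in the same order, so that here the insulin cells had the highest median. The place of the delta cells depended on number format and scale. In rounded columns their TCA cycle median was the lowest, at 457 RPKM, against 653 in PP, 753 in alpha and 871 in insulin cells, and their glycolysis median was 504 RPKM, against 561 in insulin cells. In full-precision columns the delta medians were the highest for both roles, at 1864 RPKM for the TCA cycle and 1243 RPKM for glycolysis, against 1258 and 960.1 RPKM in insulin cells. Per 1000000 RPKM summed over the genes outside hormone and mitochondrial genes in each cell, the TCA cycle median was 3161 in delta and 3320 in insulin cells, and that of glycolysis was 2437 in delta and 2393 in insulin cells.

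**Figure D1:**
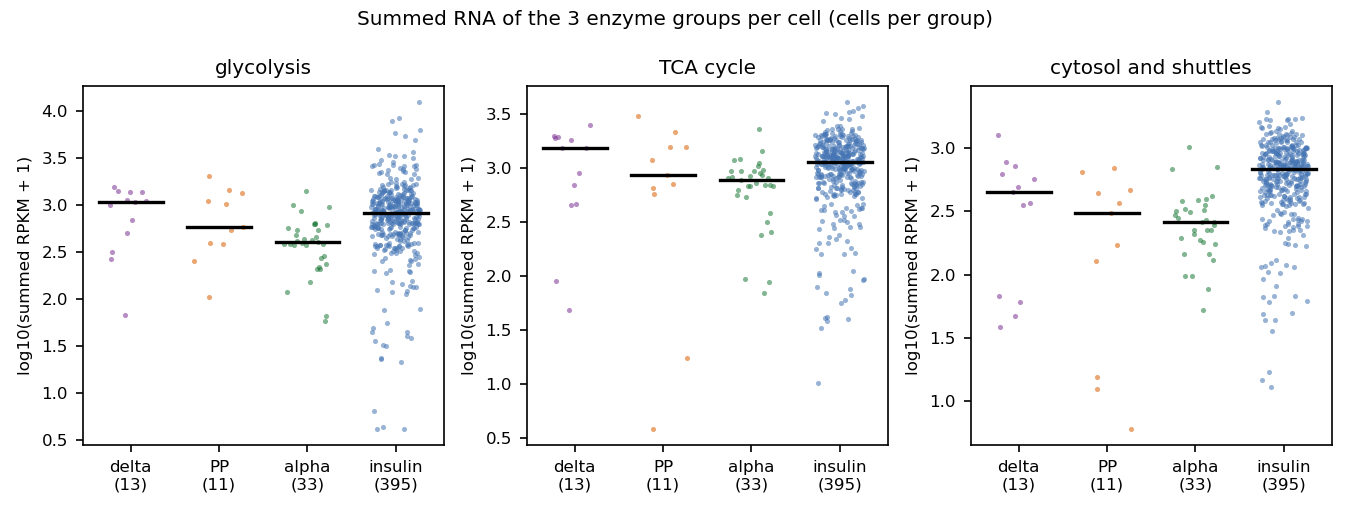
Summed RPKM of the glycolysis, TCA cycle and cytosol and shuttle genes in each cell, as log10(summed RPKM + 1). Each point is a cell, the bar is the group median and the number of cells stands under each group. Delta cells have the highest medians for glycolysis (1078 RPKM) and the TCA cycle (1513 RPKM) over both number formats, but not in rounded columns (504 and 457 RPKM, against 561 and 871 RPKM in insulin cells), and insulin cells have the highest for the cytosol and shuttle genes (678 RPKM).

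Each group was set against insulin cells by the log2 ratio of group means with 1 RPKM added to each, where -1 is 2-fold lower. A gene entered with a mean of the 4 group means of at least 5 RPKM. Of the 39 enzymes 35 entered, and Hk1, Hk2, Pfkp and Me1 did not. In delta cells 3 of 35 were at least 2-fold higher and 9 were at least 2-fold lower, beside 23.7% and 19.7% of all 6780 genes that entered (43.3% in either direction). The median log2 ratio was -0.13 for the enzymes and 0.15 for all genes. The delta count turned with the number format. Full-precision columns had 9 higher and 8 lower of 36 enzymes, beside 24.1% and 22.1% of all genes, with medians of 0.30 for the enzymes and 0.12 for all genes. Rounded columns had 2 higher and 18 lower of 33, beside 29.2% and 33.7%, with medians of -1.37 and -0.07. In PP cells 1 was higher and 8 were lower, beside 16.4% and 26.2% of all genes (42.6% in either direction), with medians of -0.35 and -0.20. By group means over both formats together, the shares of enzymes past 2-fold in either direction were below those of all genes in delta and PP cells. By group medians they were above them. Then 15 of 35 enzymes were past 2-fold in delta cells, beside 29.1% of all genes, and 17 of 35 in PP cells, beside 31%. Genes still entered by their means, and a gene with a median of 0 in both groups cannot pass 2-fold. The median log2 ratio of all genes by group medians was 0 in delta and in PP cells. The enzymes and all genes were not matched for level. In alpha cells 1 was higher and 13 were lower, beside 8.92% and 19.6% of all genes (28.5% in either direction), with medians of -0.80 and -0.17. In alpha cells 30 of the 35 enzymes had a ratio below 0, against 18 in delta and 24 in PP cells. Of all 6780 genes, 3916 had a ratio below 0 in alpha, 3050 in delta and 3870 in PP cells. The 3 comparisons share the insulin cells.

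The 13 enzymes at least 2-fold lower in alpha cells were 7 of glycolysis (Pfkl, Pfkm, Aldoa, Pgk1, Eno1, Eno2 and Pkm), 4 of the TCA cycle (Ogdh, Dlst, Sucla2 and Fh1) and 2 of the cytosol (Mdh1 and Acly). The enzyme on the high side was Aldoc, at 1.10, which was above 1 RPKM in 6 of 33 alpha cells. A single alpha cell at 345 RPKM held 63.5% of its sum there. The alpha mean of Aldoc was 16.5 RPKM with that cell and 6.19 RPKM without it, and the ratio was -0.05 without the highest cell of each group and -1.48 with a hormone share of at least 99%. Pgk1, Pkm, Fh1 and Acly kept a ratio past 2-fold in alpha cells under all 13 alternative settings run. Some of these settings changed the level filter only, which cannot change the ratio of a single gene. How many of all genes kept such a ratio was not counted. The scale of RPKM bears on all ratios, since hormone RNA takes a smaller share in delta cells. With each cell rescaled without the hormone and mitochondrial genes, the median log2 ratio of all genes was -0.41 in delta, -0.46 in PP and 0.01 in alpha cells, against 0.15, -0.20 and -0.17 as deposited. The enzymes' medians were then -0.33, -0.44 and -0.60. Rescaled, 16% of all genes were higher and 35.3% lower in delta cells, 15.6% and 36.3% in PP cells and 15.7% and 19.3% in alpha cells. Of the 39 enzymes, all of which entered on that scale, 1 was higher and 13 lower in delta cells, 2 and 9 in PP cells and 3 and 11 in alpha cells. Centred on the median of all genes, the enzymes' medians were -0.28 in delta, -0.15 in PP and -0.64 in alpha cells. Then 3 were higher and 10 lower in delta cells, 2 and 5 in PP cells and 1 and 11 in alpha cells, where 20.4% and 22.3%, 19.9% and 21.5%, and 11.7% and 15.9% of all genes were.

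**Figure D2:**
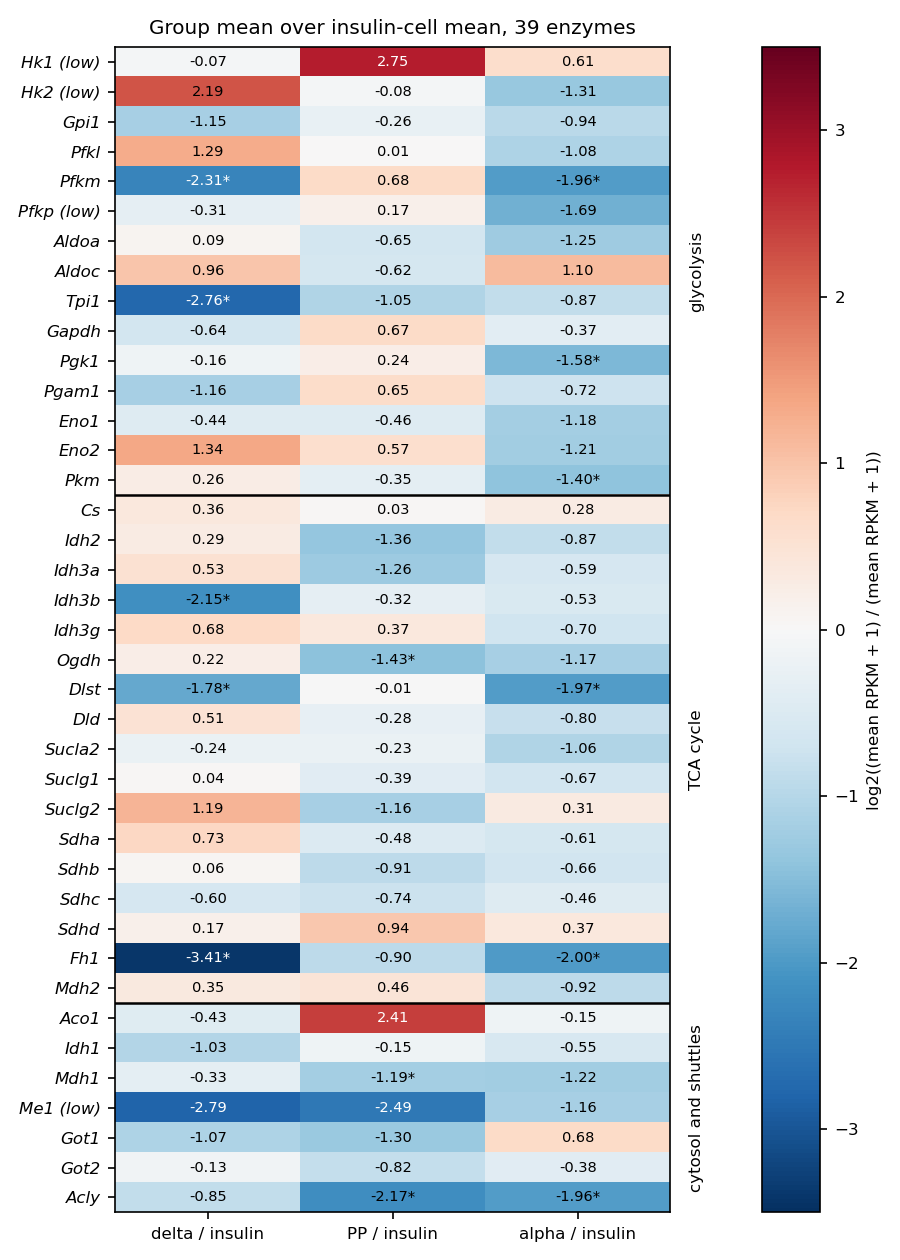
Log2 ratio of the mean RPKM + 1 of delta, PP and alpha cells over that of insulin cells, for the 39 enzymes by role (red higher, blue lower). An asterisk marks ratios of at least 2-fold in the same direction in all cells and in each number format, among the 35 enzymes that entered; low marks the 4 that did not. Fh1 (-3.41), Tpi1 (-2.76), Pfkm, Idh3b and Dlst are marked in delta cells, and Acly (-2.17), Ogdh and Mdh1 in PP cells.

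Hexokinases trap glucose in the cell as glucose 6-phosphate. Hk1, a hexokinase with high glucose affinity, reached 1 RPKM in 5 of 11 PP cells (45.5%, exact Clopper-Pearson 95% interval 16.7 to 76.6), at 2.04, 2.94, 10.9, 13.5 and 37.5 RPKM. It was listed at 0 in all 13 delta cells, where a share below 23.1% could have been missed, and it stood at 1 RPKM or more in 4 of 33 alpha cells and 4 of 395 insulin cells (1.01%, 0.277 to 2.57), with highest values of 8.28 and 8.03 RPKM. Intervals and limits cover counting error only. Low values were frequent, and Hk1 was at or near 0 in most cells of every group. Of the Hk1-positive cells, 2 of 5 PP, 1 of 4 alpha and 3 of 4 insulin cells also held markers of another cell type. Without such cells Hk1 was at 1 RPKM or more in 3 of 8 PP, 3 of 31 alpha and 1 of 376 insulin cells. With each cell thinned to 250000 reads, the share with an Hk1 read was 44.8% in PP and 1.25% in insulin cells, against 45.5% and 1.79% with all reads. Thinning left out 4 insulin cells and 1 alpha cell with fewer reads. All PP values above 10 RPKM came from full-precision columns, where Hk1 averaged 10.8 RPKM, against 0.408 RPKM in rounded columns.

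Hk2, the hexokinase of muscle and fat, rested on few cells. Its mean of 10.3 RPKM in delta cells came from a single cell at 134 RPKM, which was also the delta cell with immune markers. In insulin cells 11 of 395 had Hk2 at 1 RPKM or more, and 9 of these were among the 19 with markers of another cell type. No alpha cell reached 1 RPKM.

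The phosphofructokinases, which commit the sugar to glycolysis, were low and patchy. In insulin cells the muscle isoform Pfkm averaged 7.05 RPKM, the liver isoform Pfkl 6.88 RPKM and the platelet isoform Pfkp 3.76 RPKM, or 39.9%, 38.9% and 21.3% of the family. At 1 RPKM or more, 98 of 395 insulin cells held more than one isoform (80 held 2 and 18 held 3), 142 held 1 and 155 held none. Of the delta cells 7 held 1 isoform and 6 none. Pfkm had 0, 0 and 7.21 RPKM in the lowest, median and highest delta cell, against 0, 0 and 278 RPKM in insulin cells, a log2 ratio of -2.31. In PP cells Pfkm reached 115 RPKM and averaged 11.9 RPKM, but 1.52 RPKM without that highest cell. Pfkl averaged 18.3 RPKM in delta cells, with a log2 ratio of 1.29 over insulin cells that rested on a cell at 200.2 RPKM. Without the highest cell of each group it was -0.84. Gpi1, the isomerase one step earlier, had 0, 0 and 155 RPKM in delta cells, against 0, 16.9 and 692 RPKM in insulin cells. Its log2 ratio was -1.15, with -0.45 in full-precision and -4.71 in rounded columns. Exons of Pfkm and Gpi1 share 10.7% and 11.5% of their bases with other annotated genes, and their reads could not be told apart there.

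Triose phosphate isomerase, Tpi1, which interconverts the pieces of the split sugar, was the glycolysis gene with the lowest ratio in delta cells. It had 0, 0 and 127 RPKM in the lowest, median and highest delta cell, 0, 31.0 and 108 RPKM in PP cells, 0, 0.574 and 853 RPKM in alpha cells and 0, 23.5 and 1900.3 RPKM in insulin cells. All ranges start at 0 and overlap, and 11 of 13 delta cells lay below the insulin median. It reached 1 RPKM in 4 of 13 delta cells (30.8%, 9.09 to 61.4), against 305 of 395 insulin cells (77.2%, 72.8 to 81.3). At 250000 reads per cell, 29.7% of delta and 75.0% of insulin cells had a read. The log2 ratio of delta over insulin means was -2.76, with -2.30 in full-precision and -3.48 in rounded columns. In PP cells the ratio was -1.05, but the PP median was the higher one, which gave 0.38 by medians.

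Among the later steps, Pgam1, a phosphoglycerate mutase, had 0, 0 and 226 RPKM in delta cells, against 0, 29.9 and 1386 RPKM in insulin cells, with a log2 ratio of -1.16 in all cells, -2.84 in full-precision and -0.13 in rounded columns. Gapdh, which yields the NADH of glycolysis, averaged only 5.14, 14.2, 6.42 and 8.56 RPKM in delta, PP, alpha and insulin cells. The genome holds 77 near-identical copies of its transcript, with at least 95% identity over 300 bases or more, and the 74 of them in the table summed to means of 24.0, 36.9, 19.2 and 36.1 RPKM. Its level is therefore uncertain. Pyruvate kinase, Pkm, which makes pyruvate and ATP, had 0.145, 177 and 422 RPKM in delta cells, 0, 80.2 and 463 RPKM in PP cells, 0, 29.6 and 446 RPKM in alpha cells and 0.224, 116 and 761 RPKM in insulin cells. Of the alpha cells 28 of 33 lay below the insulin median, whereas 9 of 13 delta cells lay above it. The alpha over insulin log2 ratio of Pkm was -1.40, with -1.41 and -1.20 in the full-precision and rounded columns. For phosphoglycerate kinase, Pgk1, it was -1.58, with -1.87 and -1.01, and in PP cells it was 0.24, with -0.02 and 0.75. The delta ratio of Pgk1, -0.16, combined opposite values of -1.85 in full-precision and 1.05 in rounded columns, and was -2.37 by medians. Of the bases in Pkm exons, 15.3% are shared with another annotated gene.

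**Figure D3:**
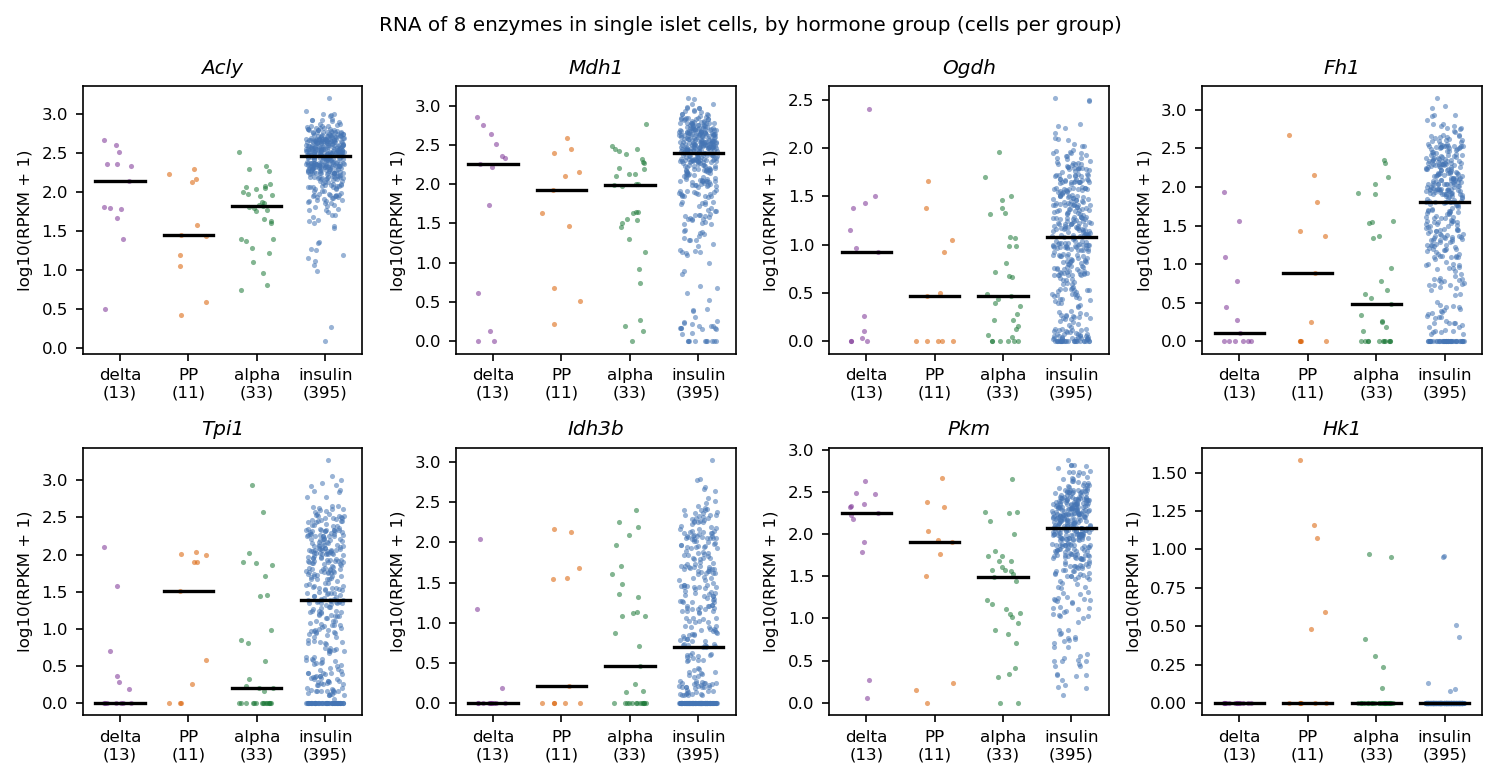
Level of 8 enzymes in each cell as log10(RPKM + 1), with the group median as a bar and the number of cells under each group. All 11 PP cells lie below the insulin median of Acly (286 RPKM), 12 of 13 delta cells lie below that of Fh1 (62.7 RPKM), and Hk1 stands above 1 RPKM in 5 PP cells.

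In the TCA cycle fumarate hydratase, Fh1, which turns fumarate into malate, had the lowest ratio of all 35 enzymes in delta cells. It had 0, 0.283 and 85.6 RPKM in the lowest, median and highest delta cell, 0, 6.64 and 465 RPKM in PP cells, 0, 2.005 and 221 RPKM in alpha cells and 0, 62.7 and 1411 RPKM in insulin cells. Of the 13 delta cells 12 lay below the insulin median, although every range overlapped that of insulin cells. Fh1 reached 1 RPKM in 5 of 13 delta cells (38.5%, 13.9 to 68.4), 6 of 11 PP cells (54.5%, 23.4 to 83.3), 18 of 33 alpha cells (54.5%, 36.4 to 71.9) and 337 of 395 insulin cells (85.3%, 81.4 to 88.7). At 250000 reads, 37.9% of delta and 83.5% of insulin cells had a read of it. Its log2 ratio was -3.41 in delta over insulin cells, with -4.27 in full-precision and -2.52 in rounded columns. In alpha over insulin cells it was -1.996, with -1.87 and -2.12. In PP cells it was -0.90, and the formats differed in sign, with -1.79 and 0.13. The PP cell at 465 RPKM held 63.9% of the sum there. Without the highest cell of each group the PP ratio was -2.16, and by medians it was -3.06. Below the insulin median lay 8 of 11 PP cells. By mean level Fh1 ranked 30th of 39 enzymes in delta cells, 13th in PP, 18th in alpha and 9th in insulin cells.

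The NAD-linked isocitrate dehydrogenase of the mitochondria needs 3 kinds of subunit, Idh3a, Idh3b and Idh3g. Idh3b had 0, 0 and 108 RPKM in the lowest, median and highest delta cell, against 0, 3.98 and 1075 RPKM in insulin cells. It reached 1 RPKM in 2 of 13 delta cells (15.4%, 1.92 to 45.4) and 221 of 395 insulin cells (55.9%, 50.9 to 60.9). The log2 ratio was -2.15, with -1.10 in full-precision and -5.45 in rounded columns, and without the delta and insulin cells with markers of another cell type it was -4.41. The catalytic subunit Idh3a had a delta over insulin ratio of 0.53, but its sign was not stable. It was 1.14 in full-precision and -0.35 in rounded columns, -1.72 by medians, -0.13 without the highest cell of each group and -0.21 without cells with markers of another cell type. Idh3g had a ratio of 0.68, and of 0.60 and 0.96 in the formats. The Idh3g ratio was 0.08 without the highest cell of each group and 0.22 by medians. A single delta cell at 638 RPKM held 40.7% of its sum there. In PP cells Idh3a stood at -1.26, with 3 of 11 cells at 1 RPKM or more and a highest value of 90.3 RPKM, against 230 of 395 insulin cells and a highest value of 515 RPKM. Its ratio there was -0.44 in full-precision columns and -4.97 in rounded columns. The NADP-linked Idh2 stood at -1.36 in PP cells, with a median of 0.960 RPKM, against 12.7 RPKM in insulin cells, and with -0.62 and -3.14 in the formats.

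The 2-oxoglutarate dehydrogenase complex has the subunits Ogdh, Dlst and Dld. In PP cells Ogdh, the subunit that decarboxylates 2-oxoglutarate, had 0, 1.95 and 45.1 RPKM, against 0, 11.0 and 328 RPKM in insulin cells. Of the PP cells 9 of 11 lay below the insulin median, and the log2 ratio was -1.43, with -1.57 and -1.29 in the full-precision and rounded columns. The delta ratio of Ogdh was 0.22, but a single delta cell at 251 RPKM held 69.5% of the sum. It was -1.23 without the highest cell of each group, -0.79 in full-precision and 0.70 in rounded columns and -0.52 by medians. Dlst, the succinyltransferase core, had 0, 0 and 36.0 RPKM in delta cells, against 0, 0.811 and 312 RPKM in insulin cells, a log2 ratio of -1.78, with -1.29 and -2.79 in the formats. In PP cells the ratio of Dlst was -0.01, with -0.48 and 0.82 in the formats and -0.69 without cells with markers of another cell type, and 8 of 11 PP cells lay below the insulin median. The beta subunit of GDP-forming succinyl-CoA ligase, Suclg2, had a ratio of 1.19 in delta cells from 5 of 13 cells at 1 RPKM or more, the highest at 264 RPKM. Without the highest cell of each group the Suclg2 ratio was -0.14. In PP cells it was -1.16, with 1 of 11 cells at 1 RPKM or more. Dld, the subunit shared with pyruvate dehydrogenase, had ratios of 0.51 in delta and -0.28 in PP cells, and differed in sign between full-precision and rounded columns in both, with 1.25 and -1.28 in delta and 0.38 and -4.28 in PP cells. Citrate synthase, Cs, and Suclg1 had ratios between -0.39 and 0.36 in delta and PP cells. Each of these differed in sign between the formats, as did Suclg1 in delta cells, with 0.95 in full-precision and -2.30 in rounded columns. The succinate dehydrogenase subunits Sdha, Sdhb, Sdhc and Sdhd, which also form complex II of the respiratory chain, lay between -0.91 and 0.94 in delta and PP cells over both formats. In PP cells Sdhb stood at -0.32 in full-precision and -4.45 in rounded columns, and Sdha at 0.21 and -4.19. Sdhc stood there at -1.12 and -0.30, and Sdhd at 0.45 and 1.53. By medians Sdhb was -5.01 in delta and -4.63 in PP cells.

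ATP citrate lyase, Acly, which makes cytosolic acetyl-CoA from exported citrate, was the enzyme with the lowest ratio in PP cells. It had 1.65, 26.9 and 193 RPKM in the lowest, median and highest PP cell, 2.13, 136 and 466 RPKM in delta cells, 4.48, 65.1 and 324 RPKM in alpha cells and 0.210, 286 and 1586 RPKM in insulin cells. All 11 PP cells and 32 of 33 alpha cells lay below the insulin median, as did 10 of 13 delta cells. Ranges still overlapped, and 116 of 395 insulin cells lay below the highest PP cell. The log2 ratio was -2.17 in PP over insulin cells, with -2.27 in full-precision and -2.01 in rounded columns. It was -1.96 in alpha over insulin cells, with -1.78 and -2.19 in the same formats. In delta cells it was -0.85, with -0.44 and -1.37. Acly was detected nearly everywhere, at 1 RPKM or more in all cells of the delta, PP and alpha groups and in 393 of 395 insulin cells. By mean level it ranked second of the 39 in insulin cells, after Aldoa, and 12th in PP cells.

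The promoters of Acly and Fh1 are shown because these genes kept a ratio of at least 2-fold below insulin cells in alpha cells under all 13 alternative settings, Acly in PP cells too, and Fh1 in delta cells under all 12. The settings of the level filter among these could not change a ratio. Both genes lie on the minus strand of GRCm38.p6, Acly at chromosome 11 from 100476352 to 100528000 and Fh1 at chromosome 1 from 175601378 to 175625635. The 250 bases before each start site, from RefSeq, cover chr11:100528001-100528250 for Acly and chr1:175625636-175625885 for Fh1. They are written 5′ to 3′ along the gene, with capitals at matches of GGGCGG (the GC box) or CCAAT on either strand.
Acly: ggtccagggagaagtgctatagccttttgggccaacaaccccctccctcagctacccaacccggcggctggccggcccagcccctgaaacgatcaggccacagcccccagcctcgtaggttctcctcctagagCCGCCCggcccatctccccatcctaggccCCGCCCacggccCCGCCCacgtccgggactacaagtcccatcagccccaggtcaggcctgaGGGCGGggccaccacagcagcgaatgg
Fh1: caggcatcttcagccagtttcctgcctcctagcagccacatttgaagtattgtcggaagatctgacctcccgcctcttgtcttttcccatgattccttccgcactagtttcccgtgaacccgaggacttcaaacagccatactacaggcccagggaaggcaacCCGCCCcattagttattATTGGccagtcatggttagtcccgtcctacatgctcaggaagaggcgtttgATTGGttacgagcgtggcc
Acly held 4 GC boxes and no CCAAT, and Fh1 held 1 GC box and 2 CCAAT. Of the 37 enzymes with a promoter in the table, 62.2% held a GC box in this window, as did 35.4% of all 27025 genes. CCAAT was found in 51.4% and 37.5%, and the E-box CACGTG in 5.41% and 6.86%. No motif contains another, and a match is a description only.

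Malate dehydrogenase of the cytosol, Mdh1, a part of the malate-aspartate shuttle, had 0.680, 82.7 and 383 RPKM in the lowest, median and highest PP cell, 0, 180 and 714 RPKM in delta cells, 0, 96.5 and 582 RPKM in alpha cells and 0, 250.0 and 1243 RPKM in insulin cells. Of the PP cells 9 of 11 lay below the insulin median, and the log2 ratio was -1.19, with -1.04 in full-precision and -1.44 in rounded columns. In delta cells the Mdh1 ratio was -0.33, with 0.26 and -1.38 in the formats. Its partner in the shuttle, the aminotransferase Got1, was found in few delta or PP cells, at 1 RPKM or more in 2 of 13 and 2 of 11, against 166 of 395 insulin cells (42.0%, 37.1 to 47.1). Got1 had log2 ratios of -1.07 in delta and -1.30 in PP cells, with 0.12 and -0.35 in full-precision columns and no read in the rounded columns of either group. Cytosolic malic enzyme, Me1, which makes NADPH, did not enter the ratios. It reached 1 RPKM in 1 of 13 delta cells, 2 of 11 PP cells and 104 of 395 insulin cells (26.3%, 22.1 to 31.0), with highest values of 6.14, 4.37 and 585 RPKM.

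Cytosolic aconitase, Aco1, known as an iron regulatory protein as well as an enzyme, was the enzyme past 2-fold on the high side in PP cells. It had 0, 0 and 438 RPKM in PP cells, against 0, 0 and 329 RPKM in insulin cells, and a log2 ratio of 2.41. The PP mean of 50.4 RPKM was 11.6 RPKM without its highest cell, and the ratio was 0.31 in full-precision and 3.49 in rounded columns. Cells at 1 RPKM or more numbered 4 of 11 PP and 121 of 395 insulin cells (30.6%, 26.1 to 35.4). Cytosolic Idh1, which makes NADPH from isocitrate, had a delta ratio of -1.03, with -0.31 and -2.55 in the formats.

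Delta over PP cells, the enzymes were spread on both sides, 8 at least 2-fold higher and 8 at least 2-fold lower of 35, beside 33.6% and 21% of all genes (54.6% in either direction). The median was 0.31 for the enzymes and 0.34 for all genes. Rescaled, 6 of 39 enzymes were higher and 12 lower, beside 29.9% and 28.9% of all genes. Centred, 5 of 35 were higher and 11 lower, beside 26.7% and 26.9%. Under all 12 alternatives run, the enzymes that kept a ratio past 2-fold were Fh1 and Tpi1, at -2.51 and -1.71. Here too, the settings of the level filter could not change a ratio. Among the others Suclg2 stood at 2.35 and Idh3a at 1.79, and Aco1 at -2.84 and Pfkm at -2.99, all resting on few cells. Aco1 stood at 0.15 in full-precision and -6.51 in rounded columns, and Pfkm at -4.24 and -0.26. A single PP cell held 79.0% of the PP sum of Aco1, and a single PP cell 88.4% of that of Pfkm. Acly averaged 173 ± 151 RPKM in delta cells and 68.9 ± 74.3 RPKM in PP cells (SD over 13 and 11 cells), a log2 ratio of 1.32, with 1.83 in full-precision and 0.63 in rounded columns.

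Isoform choice was compared in 10 families of paralogues, some with genes outside the 39 added. Over both number formats together, 6 of these were led by the same gene in all 4 groups. The other 4 had another leader in delta than in insulin cells, 2 of them also in PP cells and 1, phosphofructokinase, also in alpha cells. For phosphofructokinase the insulin cells were near a tie, with Pfkm at 39.9% and Pfkl at 38.9%. In full-precision columns Pfkl led in insulin cells, at 39.4% against 38.5%, as it did in delta and alpha cells. In rounded columns Pfkp led in delta cells, at 37.9%. The 6 families were led by Aldoa, Pgam1, Eno1, Pkm, Idh3g and Sucla2. Idh3a, Idh3b and Idh3g are subunits of the same enzyme, grouped here with Idh1 and Idh2, so the lead of Idh3g is not a choice of isoform. In full-precision columns alone, Suclg2 led Sucla2 in delta (50.5%) and alpha cells (53.2%). Idh3b led there in alpha cells, at 39.0% against 31.1% for Idh3g. Aldoa made up 96.5% of Aldoa and Aldoc together in delta, 98.3% in PP, 90.7% in alpha and 98.2% in insulin cells, Pkm at least 99.1% of pyruvate kinase and Pgam1 at least 99.995% of the mutases. The brain form Aldoc had a mean of 14.9 RPKM in delta cells from a single cell at 193 RPKM. The delta and PP over insulin ratios were 0.09 and -0.65 for Aldoa and 0.26 and -0.35 for Pkm. The liver form Pklr was at or near 0 in delta, PP and alpha cells.

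Enolase was led by Eno1 in all groups, with ratios of -0.44 in delta and -0.46 in PP cells, and the neuronal form Eno2 took 19.0% in delta cells, 12.2% in PP, 5.12% in alpha and 5.97% in insulin cells. Eno2 had 0, 0 and 139 RPKM in delta cells, against 0, 0 and 364 RPKM in insulin cells. It was at 1 RPKM or more in 4 of 13 delta and 137 of 395 insulin cells. Its delta over insulin ratio was 1.34, with 2.24 in full-precision columns and -2.74 in rounded columns, so the delta level rested on cells of one format. Sucla2 is the beta subunit of ATP-forming succinyl-CoA ligase. It made up 51.1% of Sucla2 and Suclg2 together in delta, 86.2% in PP, 52.4% in alpha and 74.8% in insulin cells.

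Malate dehydrogenase was the family with a change of leader among abundant genes. The mitochondrial Mdh2 averaged 273 RPKM in delta cells and 295 RPKM in PP cells, against 214 RPKM in insulin cells. Mdh1 made up 44.8% of the pair in delta, 29.2% in PP, 51.3% in alpha and 56.5% in insulin cells. Of the cells with at least 5 RPKM of the pair, Mdh1 led in 6 of 13 delta, 2 of 10 PP, 16 of 31 alpha and 246 of 384 insulin cells. In PP cells Mdh1 held 34.0% in full-precision and 22.4% in rounded columns, and in insulin cells 59.1% and 52.3%. In delta cells the formats differed in leader, with 52.9% and 28.6%. The leader also differed from insulin cells in the aminotransferases in delta and PP cells, and in phosphofructokinase and malic enzyme in delta cells, all families with low means. The aminotransferases reached 5 RPKM in 4 delta and 4 PP cells, and Got1 and Got2 each led in 2 of these PP cells. In malic enzyme Me2 led in delta cells, at 48.2% against 46.2% for Me3. Single delta cells held 90.0% of the Me2 sum and 100% of the Me3 sum. Mitochondrial Got2 made up 60.2% of the aminotransferases in delta, 51.9% in PP, 26.1% in alpha and 43.1% in insulin cells, but a single alpha cell held 1009 RPKM of Got1. The Got2 ratios were -0.13 in delta and -0.82 in PP cells.

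**Figure D4:**
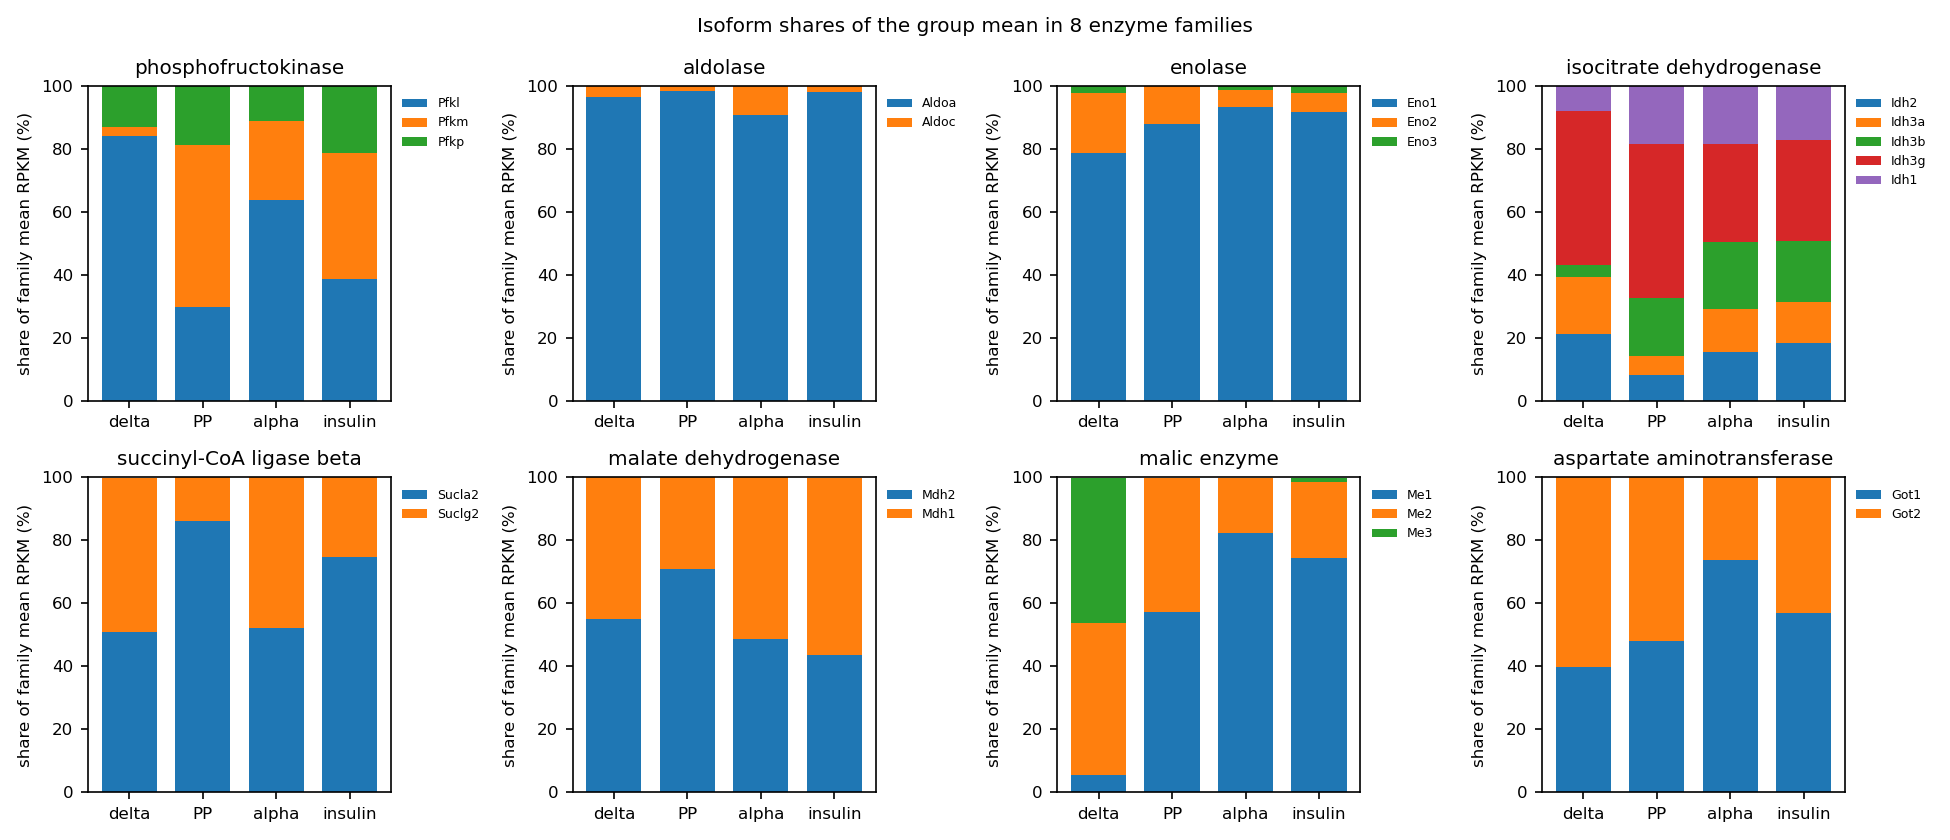
Share of each isoform in the summed mean RPKM of its family, for 8 families and the delta, PP, alpha and insulin cells. In the isocitrate dehydrogenase family Idh3a, Idh3b and Idh3g are subunits of the same enzyme. Mdh1 fills 29.2% of malate dehydrogenase in PP and 56.5% in insulin cells, and Got2 fills 60.2% of aspartate aminotransferase in delta and 43.1% in insulin cells, while Aldoa fills at least 90.7% of Aldoa and Aldoc in each group.

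Among the 395 insulin cells the enzymes varied about as much in RPKM as other genes of at least 20 RPKM. The median coefficient of variation (CV, SD over mean across cells) of the 25 enzymes at that level was 1.61, against 1.58 for the 2300 genes, and 13 of the 25 lay above the median of the 2300. Within the formats the medians were 1.28 and 1.24 in full-precision columns, and 2.01 and 1.97 in rounded columns. On the scale without hormone and mitochondrial genes the median CV was 1.75 for the 35 enzymes at that level, against 2.16 for all genes, and 13 of the 35 lay above the median of all genes. Acly varied least, with a CV of 0.64 and quartiles of 174 and 427 RPKM, the 13th lowest of the 2300. Mdh1 had a CV of 0.83, Pkm of 0.89, Mdh2 of 1.10 and Sdhb of 1.24, just below Aldoa. Got1 varied most, with a CV of 2.80 and quartiles of 0 and 15.1 RPKM. It was followed by the isocitrate dehydrogenases Idh2 (2.29), Idh1 (2.27), Idh3b (2.195) and Idh3a (2.02). Of the 3 enzymes with the lowest CV, 2 were also among the 3 with the highest means. In 19 of the 395 cells markers of another cell type were present, and without them the CV of Acly was 0.62 and that of Got1 2.67.

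**Figure D5:**
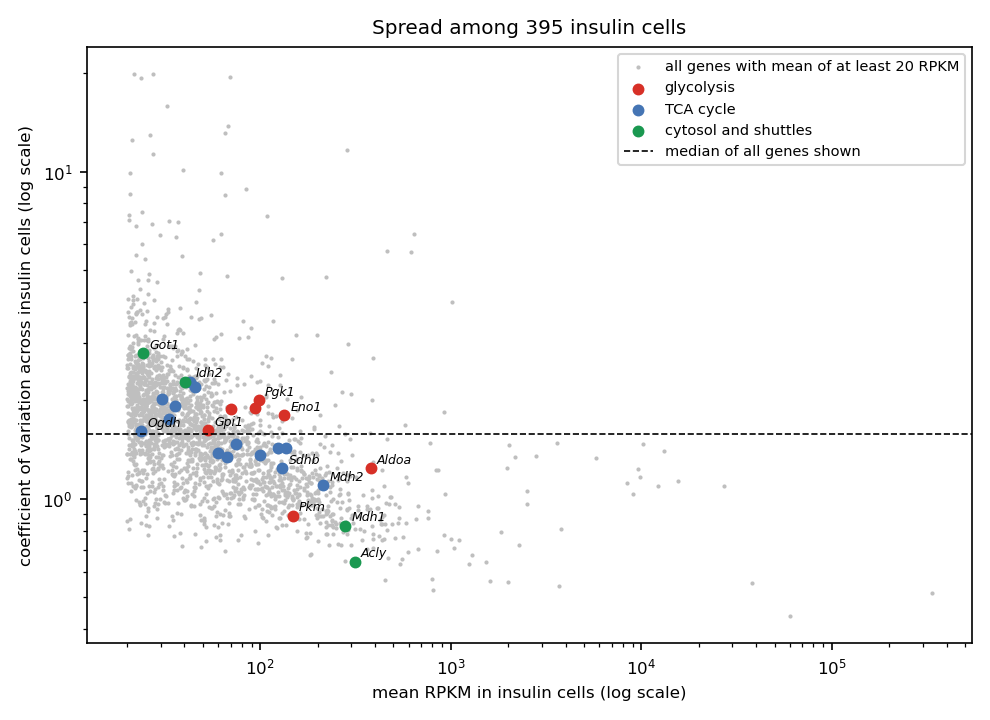
Coefficient of variation against mean RPKM across 395 insulin cells, both on log scales, for all 2300 genes with a mean of at least 20 RPKM (grey) and the 25 enzymes at that level (coloured by role, some named). The dashed line is the median CV of all genes shown (1.58). Acly, Mdh1 and Pkm lie lowest, and Got1 highest.

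Pairs of enzymes went together weakly across insulin cells. Over the 300 pairs of the 25 enzymes the median Spearman correlation was 0.07 in the 226 full-precision cells and 0.18 in the 169 rounded ones. Aldoa with Eno1 was the pair above 0.3 in both, at 0.33 and 0.43. The summed glycolysis and TCA cycle RNAs correlated at 0.31 and 0.54. Each sum also went with genes detected, between 0.19 and 0.33. The TCA sum went against the share of mitochondrial genome RNA, at -0.25 and -0.46. So did the glycolysis sum, at -0.08 and -0.32, and the cytosol and shuttle sum, at -0.14 and -0.37. Each sum went against the hormone share as well, between -0.10 and -0.32. These are descriptions over cells that share a sample, and values within a cell share its library and depth.

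Of 27 other genes of the same pathways, 11 entered the ratios. In delta cells 1 was at least 2-fold higher and 6 lower, in PP cells none and 4, and in alpha cells none and 1, beside 23.7% and 19.7%, 16.4% and 26.2%, and 8.92% and 19.6% of all genes. The largest delta ratios were those of the 2-oxoglutarate carrier Slc25a11 (2.79), Pfkfb2 (-2.26), the pyruvate dehydrogenase subunit Pdha1 (-2.07) and the aspartate-glutamate carrier Slc25a12 (-1.41). The Slc25a11 ratio rested on a delta cell at 2231 RPKM, and was -0.23 in full-precision columns. Pfkfb2, which sets the level of the phosphofructokinase activator fructose 2,6-bisphosphate, had a median of 0.457 RPKM in delta cells, 2.22 in PP, 1.11 in alpha and 32.4 in insulin cells. It reached 1 RPKM in 5 of 13, 6 of 11, 17 of 33 and 332 of 395. The largest PP ratios were those of Bpgm (-3.71), Slc25a12 (-2.97) and Ogdhl (-2.18). Pyruvate carboxylase, Pcx, which refills the TCA cycle with oxaloacetate, was below the level needed to enter and is named after its values were seen. No cell of the 13 delta or 11 PP cells had 1 RPKM of Pcx, against 4 of 33 alpha and 205 of 395 insulin cells.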

How the data were processed

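RNA of 622 single mouse islet cells was captured on C1 chips, amplified (SMARTer Ultra Low RNA chemistry) and built into Nextera XT libraries, per the labels' protocols. The authors deposited 1 table of RPKM values with genes as Entrez IDs and cells as columns. CASAVA 1.8.2, FastQC and the build GRCm38 (mm10) are named in the submitters' processing notes; not given in the sources used here: aligner, counter, annotation. RefSeq tables of the same build gave symbols for 39725 of 44448 IDs, positions and promoters.

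The members, the lists and the settings were chosen with earlier results of these data known. Group means, ratios (pseudocount 1 RPKM), shares of cells at 1 RPKM or more, isoform shares and CVs were computed with Python 3.11.15, pandas 2.3.3, NumPy 2.4.6 and SciPy 1.17.1. The ratio step was tested with known fold changes put into the insulin cells. Ratios were called at 2-fold, with no p-value, since all cells are 1 sample. Full values are given for enzymes past 2-fold in delta or PP cells, the leading isoforms and the extremes of CV. Whole reads were recovered from the RPKM steps of 22829 genes, with 99.936% of values under 100 reads whole within 0.05 reads in the rounded columns. They served for depth and thinning only, and not for Acly, whose step was not found. Some genes of these families, pathways and marker lists are not reported here. No doublet caller was run. Cells with several hormones were left out of the groups. Near-identical copies and overlapping exons were found with BLAST and GENCODE M21. Alternatives changed the mean, pseudocount, level filter, hormone share, gene minimum, scaling, number format and cells included.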

Additional observations from a re-analysis of the deposited data

How the results depend on the processing

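Counts of enzymes past 2-fold moved by over 1.5 times under some alternatives. The share of all genes past 2-fold moved too and stands in parentheses. Delta over insulin cells the count was 12 of 35 (43.3%), and it was 3 of 35 with a pseudocount of 10 (20.8%), 7 of 25 with a level filter of 20 RPKM (35.6%) and 20 of 33 in rounded columns (62.9%). PP over insulin cells it was 9 of 35 (42.6%), and it was 17 of 35 by group medians (31%), 4 of 35 with a pseudocount of 10 (17.5%), 16 of 32 with a hormone share of at least 99% (54.3%), 16 of 33 in rounded columns (60.4%) and 15 of 35 without cells holding markers of another cell type (50.7%). Alpha over insulin cells it was 14 of 35 (28.5%), and it was 7 of 35 with a pseudocount of 10 (8.97%) and 8 of 25 with a filter of 20 RPKM (23.8%). Delta over PP cells it was 16 of 35 (54.6%), and it was 8 of 25 with that filter (45.6%). The families led by another isoform than in insulin cells numbered 4 in delta cells, and 1 by medians. In PP cells they numbered 2, and 1 by medians, 4 in full-precision columns and 1 without cells holding markers of another cell type. Some delta ratios reversed. Eno2 was -2.74 in rounded columns. Pfkl was -1.48 in rounded columns and -0.84 without the highest cell. Suclg2 was -0.29 by medians, -1.98 in rounded columns and -0.14 without the highest cell. The PP ratio of Tpi1 was 0.38 by medians. The cause was not tested in any of these. The count of 13 of 25 enzymes above the median CV lay between 12 and 15 in the alternatives run, but rescaled without hormone and mitochondrial genes it was 13 of 35.

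No paired analysis was possible because the labels give no groups and no replicates. The hormone share of 99% was not run for delta cells, of which 1 was left. Small groups (13 delta and 11 PP cells) and few reads of low enzymes limit what could be seen: means there often rest on single cells.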

Other observations

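Cells with no hormone at 90% of the summed hormone RNA stood outside the comparisons, and numbered 141. Named by their 2 leading hormones, they were 65 cells with glucagon and insulin, 28 with somatostatin and insulin, 23 with pancreatic polypeptide and insulin, 16 with pancreatic polypeptide and somatostatin, 8 with pancreatic polypeptide and glucagon and 1 with glucagon and somatostatin. Acly had a median of 161 RPKM in the cells with glucagon and insulin, 254 RPKM in those with somatostatin and insulin and 187 RPKM in those with pancreatic polypeptide and insulin. In cells with pancreatic polypeptide and either somatostatin or glucagon it was 98.5 and 97.6 RPKM. Fh1 reached 1 RPKM in 23 of the 28 cells with somatostatin and insulin, and in 5 of the 16 with pancreatic polypeptide and somatostatin. Tpi1 did so in 26 of 28 and 7 of 16. Hk1 reached 1 RPKM in 11 of the 65 cells with glucagon and insulin, with a highest value of 23.1 RPKM, in 1 cell of each combination of pancreatic polypeptide with another hormone, at no more than 1.73 RPKM, and in none of the 28 with somatostatin and insulin. Whether these cells are doublets was not tested.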
